A study of Homo sapiens with 20 samples.

Results

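The histone gene cluster on chromosome 6 was examined in peak lists of chromatin immunoprecipitation sequencing (ChIP-seq) from M14 cells, an established human melanoma line. Members were all protein-coding genes between 25.7 and 28 Mb (hg19, GENCODE) whose symbol marks a linker histone (H1) or a core histone (H2A, H2B, H3 or H4), which gave 52 of the 20163 protein-coding genes on the chromosomes analysed. They comprised 6 H1, 12 H2A, 13 H2B, 10 H3 and 11 H4 genes, and 11 histone pseudogenes of the interval were left out. From the first to the last gene the cluster ran from 25723625 to 27861669 on chromosome 6, or 2.14 Mb. The genes fell into 4 groups, of 2 genes (H2AC1 and H2BC1), 29 genes (H1-1 to H4C8, 26017260 to 26285866), 5 genes (H2BC11 to H2AC12, 27093676 to 27115341) and 16 genes (H2BC13 to H2BC17, 27775257 to 27861669). One H4 gene still had its older symbol, HIST1H4B, in the annotation and is called by it here.

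ChIP was done for STAG2, STAG1, SMC1A and CTCF in wild-type (WT) cells and in STAG2 knockdown (KD) cells, with 2 libraries each, which gave 16 peak lists. Per the paper, both conditions came from 1 M14 line that carried a doxycycline-inducible shRNA against STAG2, given doxycycline (KD) or not (WT). WT here therefore means uninduced cells of that line, and an effect of doxycycline itself cannot be told apart from the KD. In replicate 1 the labels give 5 days of doxycycline for the KD, and in replicate 2 they give no treatment time. Nothing in the labels says that the replicates were separate cultures or lines, so the spread between them may be technical, and a single shRNA in a single line limits what the KD stands for. The replicates also differed in how DNA was size-selected, with beads in the first and on a gel in the second, and in the threshold for peaks, so that KD and WT were compared within a replicate. The STAG2 lists, which bear on the target of the KD, held 79115 peaks in WT and 58521 in KD in replicate 1, and 119021 and 106203 in replicate 2.

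Cohesin is a ring-shaped complex that extrudes chromatin loops and holds sister chromatids together. SMC1A is a core subunit of the ring, STAG1 and STAG2 are alternative subunits of which each ring carries one, and CTCF is the zinc-finger protein at whose sites cohesin often halts. Replication-dependent histone genes are short, have no introns, and are transcribed together in S phase, when newly made DNA has to be packaged. Many H2A and H2B genes lie head to head and share 1 promoter, and the same stretch of chromosome 6 holds many tRNA genes.

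Promoter sequences are shown first, with 1 promoter of genes without any peak and 1 of genes with peaks in most lists. In the 250 bases upstream of the start site, TATAAA, the core promoter element that the TATA-binding protein contacts, was found on either strand in 36 of 52 members (69.2%), against 9.40% of all protein-coding genes. CCAAT was found in 45 members (86.5%), against 34.1% of all genes. The octamer ATTTGCAT, the binding motif of POU2F1, was found in 20 members (38.5%), against 1.53% of all genes. By family, CCAAT was present in every H1, H2A, H2B and H3 promoter but in 4 of 11 H4 promoters, and the octamer occurred in 10 of 12 H2A and 10 of 13 H2B promoters and in none of the other 27 members. Shared head-to-head promoters enter these counts for both of their genes. The shared promoter of H2AC1 and H2BC1, testis histone genes without a peak in any list, lies at chr6:25726791-25727004, and that of H2AC17 and H2BC17, the latter with a peak in all 16 lists, at chr6:27860964-27861202. Both are printed on the plus strand of hg19, from the start of one gene to that of the other, with matches of these motifs on either strand in capitals.
H2AC1/H2BC1: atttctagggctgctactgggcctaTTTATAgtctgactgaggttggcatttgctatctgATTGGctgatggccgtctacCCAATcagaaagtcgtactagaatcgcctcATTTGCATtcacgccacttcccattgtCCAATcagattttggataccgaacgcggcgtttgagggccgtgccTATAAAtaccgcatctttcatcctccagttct
H2AC17/H2BC17: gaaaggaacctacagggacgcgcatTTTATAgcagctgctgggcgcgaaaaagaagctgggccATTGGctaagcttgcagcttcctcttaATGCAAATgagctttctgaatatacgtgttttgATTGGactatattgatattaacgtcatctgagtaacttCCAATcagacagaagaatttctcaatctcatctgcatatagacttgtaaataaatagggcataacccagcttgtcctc
The H2AC1 and H2BC1 promoter held TATAAA 2 times, CCAAT 3 times and the octamer 1 time. That of H2AC17 and H2BC17 held them 1, 3 and 1 times, so that the presence of these letters did not separate the pair. H2AC17 had a peak in 15 lists, with no CTCF peak in KD of replicate 1. In that list the CTCF peak of H2BC17, at a percentile of 1.06, lay past the end of the gene and not at the promoter. The other genes without any peak, H1-6 and H4C7, had CCAAT and TATAAA, respectively.

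In 15 of the 16 lists a larger share of the histone genes than of all genes had a peak within 1 kb of the start site. For STAG1, 78.8% of members and 33.3% of all genes had such a peak in WT of replicate 1, and 75% and 46.9% had one in KD. In replicate 2 the STAG1 shares were 90.4% and 55.5% in WT, and 88.5% and 56.8% in KD. STAG1 peaks were thus at more of the members than of all genes in each of its lists. For STAG2, members and all genes stood at 59.6% and 47.1% in WT and 59.6% and 44.7% in KD of replicate 1, and at 84.6% and 62.3% in WT and 80.8% and 61.5% in KD of replicate 2. For SMC1A, they stood at 80.8% and 53.4% in WT and 88.5% and 57.1% in KD of replicate 1, and at 92.3% and 66.7% in WT and 90.4% and 67.6% in KD of replicate 2. CTCF differed least, with 50.0% and 46.0% in WT and 46.2% and 46.6% in KD of replicate 1, and 73.1% and 59.4% in WT and 67.3% and 57.8% in KD of replicate 2. The KD of replicate 1 was the 1 CTCF list in which members did not exceed all genes. In total, 4 of 52 members (7.69%) had no start-site peak in any list, against 26.2% of all genes, while 11 members (21.2%) had one in all 16 lists, close to the 23.3% of all genes.

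**Figure D1:**
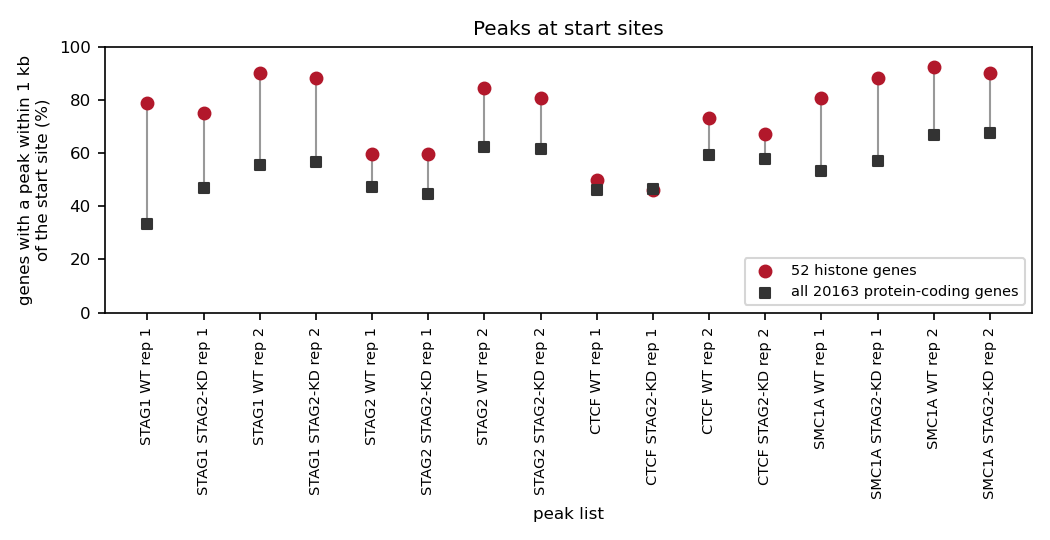
Percent of genes with a peak within 1 kb of the start site in each of the 16 lists (x axis), with red circles for the 52 histone genes of the cluster and dark squares for all 20163 protein-coding genes. The histone genes lay above all protein-coding genes in 15 lists, with 46.2% against 46.6% in the CTCF list of KD replicate 1 as the exception.

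Other gene lists placed these shares, first for STAG1. The 16 replication-dependent histone genes elsewhere in the genome had start-site STAG1 peaks in 75% (WT) and 87.5% (KD) of cases in replicate 1, but in 50% and 56.2% in replicate 2. The 20 other protein-coding genes of the same interval, such as butyrophilin genes and HFE, a regulator of iron uptake, had STAG1 peaks at 25% and 35% of start sites in replicate 1 and at 55% and 50% in replicate 2. The share at the histone genes was above that of their neighbours in every STAG1 list. Among 17 genes for histone expression factors, which include NPAT, SLBP and CASP8AP2, 41.2% to 82.4% had a STAG1 peak. The 12 histone variant genes, many of them expressed outside S phase, had one in 50% to 75%. For other antibodies the order differed. STAG2 peaks were at 64.7% (WT) and 76.5% (KD) of the expression factor genes, and at 100% and 94.1% in replicate 2. These shares were above those of the members in each STAG2 list, while those of the 20 neighbours were below. CTCF peaks were at 93.8% of the histone genes elsewhere in both lists of replicate 1, above the members. In replicate 2 they were at 56.2% in both, below the members.

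Counted over the whole annotated gene and 1 kb on either side, SMC1A reached the most members. In replicate 1 SMC1A was at 43 genes in WT and 48 in KD, and at 48 under both conditions in replicate 2. STAG1 peaks were found at 42 genes in WT and 40 in KD in the first replicate, and at 47 and 46 in the second. STAG2 peaks were found at 33 and 32, and at 45 and 42. These numbers moved by at most 5 genes with the KD, whereas replicates of 1 condition differed by up to 12 genes. CTCF peaks were found at 32 genes in WT and 29 in KD, and at 40 and 39. The change from WT to KD was −1.5 ± 0.707 genes for STAG1, −2 ± 1.41 for both STAG2 and CTCF, and 2.5 ± 3.54 for SMC1A (mean ± SD of the differences within replicate, n = 2). A two-sided exact permutation test of the 4 lists gave p = 0.667 for STAG1, STAG2 and CTCF and p = 1 for SMC1A, and with 2 lists against 2 its smallest p is 0.333. No difference in the number of bound genes was therefore detectable. Had only the strongest peaks been used, in equal number from every list, the STAG2 difference would have turned to 6.5 genes, that of SMC1A to −2 and that of STAG1 would have grown to −10.5.

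The same genes were not all bound in every list. SMC1A peaks were at 43 members in all 4 of its lists, STAG1 peaks at 37, STAG2 peaks at 26 and CTCF peaks at 26. Members without any peak numbered 4, which were H2AC1, H2BC1, H1-6 and H4C7, and the first 3 of these encode testis histones. H2BC13 and H2AC13, a head-to-head pair, had no STAG2 peak, and H2BC5 and H1-3 had no CTCF peak, beside these 4. A peak in all 16 lists was found at 16 members, the first 8 by position being HIST1H4B, H3C3, H1-2, H2BC4, H4C3, H2BC6, H4C4 and H4C5. This fell to 13 members when only the main transcript and 1 kb around it was used. The reason is that 11 genes have an annotated span over 2 times as long as their main transcript. H2BC4 and H2BC6 then had peaks in 14 and 11 lists. No share over all genes was taken in the wider window. By start site, 21.2% of members and 23.3% of all genes had a peak in all 16 lists, so binding throughout was not particular to members. The 2 genes of the first group, at the far end from the others, had no peak of any antibody.

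**Figure D2:**
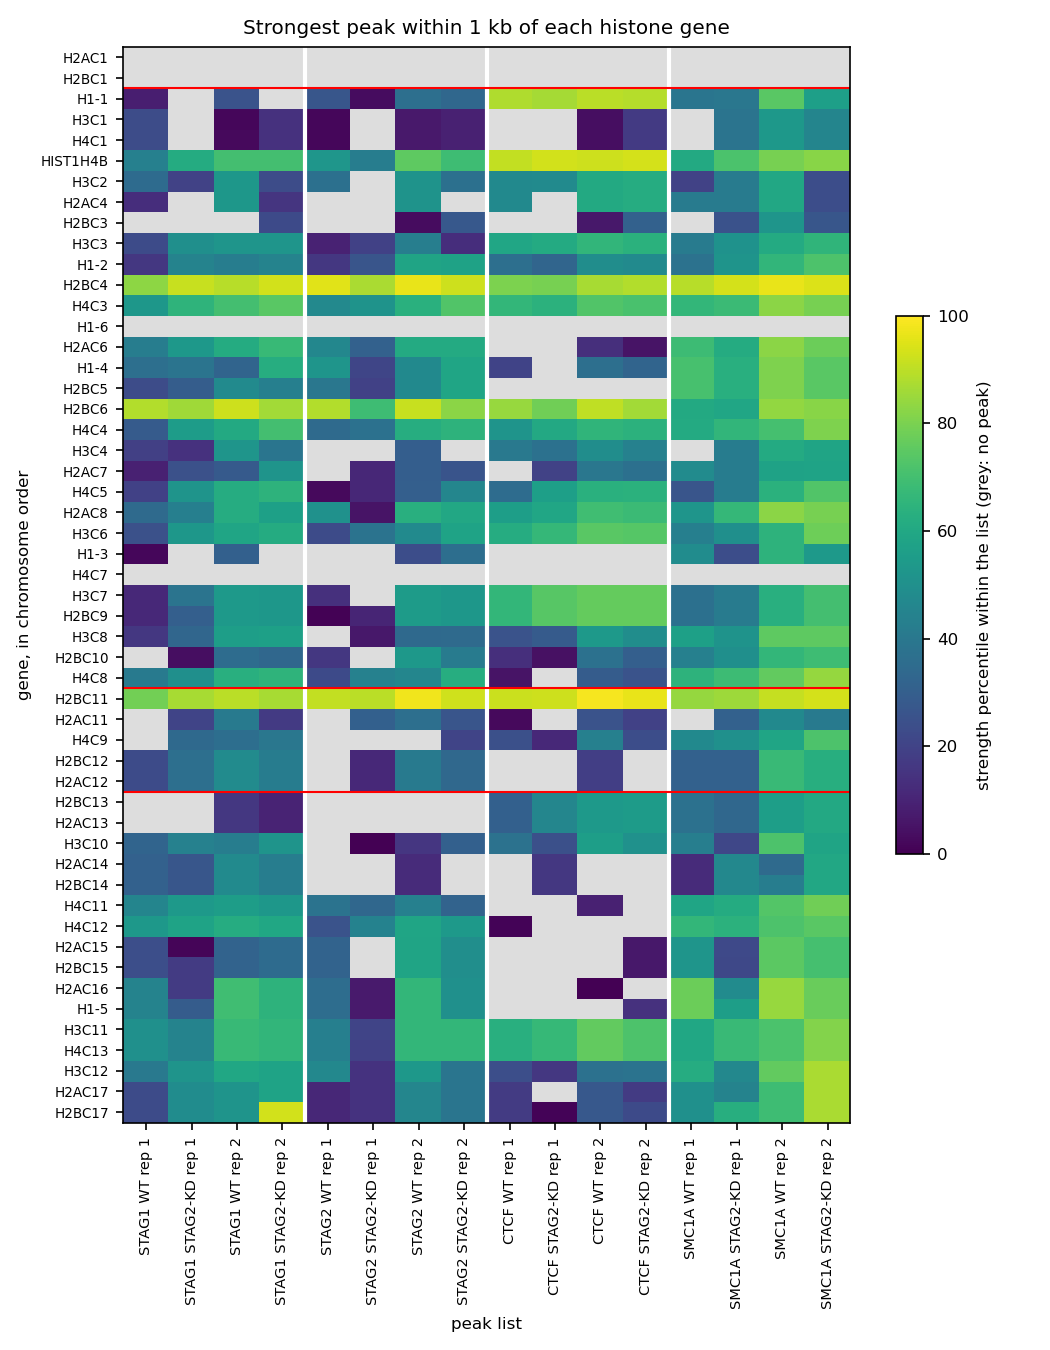
Strength percentile of the strongest peak within 1 kb of each of the 52 histone genes (rows, in order along the chromosome) in each of the 16 lists (columns), with grey for no peak and red lines between the 4 groups of genes. The 2 genes of the first group were grey throughout, and SMC1A columns had the fewest grey cells, with peaks at 43 to 48 genes.

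The combination of antibodies was also counted by gene. Members were counted over the whole annotated gene and 1 kb around it, but all genes within 1 kb of the start site. This smaller window limits the comparison. All 4 antibodies had a peak at 23 members in WT and 19 in KD of replicate 1, and at 36 and 34 in replicate 2. Of all genes by start site, 26.2% and 30.8%, and 48.2% and 48.0% had all 4. Cohesin without CTCF, meaning SMC1A with STAG1 or STAG2, was found at 15 members in WT and 19 in KD, and at 8 and 9. STAG1 and STAG2 peaks at the same gene numbered 32 in WT and 31 in KD, and 44 and 40. For these 2 combinations no share over all genes was taken, so whether the members stand out in them was not tested. STAG1 without STAG2 was found at 10 members in WT and 9 in KD of replicate 1, and at 3 and 6 in replicate 2, whereas STAG2 without STAG1 was found at 1 or 2 members. Of all genes by start site, 2.52% and 8.69%, and 1.73% and 2.25% had STAG1 alone of the pair, and 16.4% and 6.49%, and 8.57% and 6.87% had STAG2 alone. The members with only STAG1 did not change by the same sign in both replicates.

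Many peaks at the histone genes were below the middle of their list, except those of SMC1A in replicate 2. Strength is given as the percentile of a peak's −log10 p-value in its own list, with 100 as the strongest, and fold is the authors' enrichment over expected background at the summit. In the 16 lists 47.2% to 90.5% of the peaks within 1 kb of a member were below the median strength of their list, and 0 to 3 peaks per list were in its top 10%. For STAG1 in replicate 1 the median percentile of the members with a peak was 26.7 in WT and 43.5 in KD, with median folds of 5.28 and 6.12. For STAG2 in replicate 1 it was 34.4 in WT and 19.5 in KD, with median folds of 5.73 and 4.65. In replicate 2 these medians were closer, at 52.1 and 52.9 for STAG1 and at 47.7 and 49.2 for STAG2. SMC1A medians were 50.3 and 47.6 in replicate 1 and 69.0 and 72.1 in replicate 2 and were thus the highest of all in replicate 2. CTCF medians were 43.8 and 56.3, and 53.9 and 50.7. Start-site peaks of all genes give the setting. Their STAG1 medians were 38.7 in WT and 43.3 in KD of replicate 1 against 23.9 and 38.4 at members. In replicate 2 they were 50.5 and 52.0 against 51.7 and 51.9. For STAG2 they were 41.7 and 39.5 against 31.7 and 19.5 at members, and 56.5 and 56.8 against 46.7 and 43.7. For CTCF they were 47.6 and 49.0 against 37.1 and 46.9, and 55.1 and 54.0 against 43.4 and 47.1. For SMC1A they were 52.2 and 52.1 against 48.4 and 46.7, and 71.0 and 70.1 against 67.7 and 70.3. Members were thus below all genes in every STAG2 and CTCF list, and the high SMC1A medians of replicate 2 were not particular to them.

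By family, H4 genes had the highest median STAG1 strength in all 4 STAG1 lists and the highest SMC1A strength in 3 of 4. The median STAG1 percentile of H4 genes with a peak was 43.5 in WT and 53.6 in KD of replicate 1, and 62.1 and 64.9 in replicate 2. For H2A genes it was 23.9 and 26.6, and 48.1 and 42.6. H1 genes were few, with 5 of 6 bound by STAG1 in WT and 3 of 6 in KD in each replicate. They were the one family with fewer STAG1-bound genes in KD in both replicates, while their STAG2 peaks numbered 4 in WT and 4 in KD, and 5 and 5. CTCF was at 9 of 10 H3 genes in both lists of replicate 1 and at all 10 in replicate 2, whereas 5 of 12 H2A genes had a CTCF peak in WT and 4 in KD of replicate 1, and 9 and 8 in replicate 2.

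H1-5, a linker histone gene at 27834570 to 27835366, had the highest WT STAG2 mean of its family, 51.0. Its STAG2 percentiles were 35.6 in WT and 7.27 in KD in replicate 1, and 66.3 and 50.0 in replicate 2. Its STAG1 percentiles were 44.7 and 29.2, and 69.4 and 64.6, and CTCF was found in 1 list only, at 14.2 in KD of replicate 2. All 3 cohesin subunits were thus lower in KD at H1-5 in both replicates, with SMC1A at 77.7 and 56.0, and 84.4 and 77.3. H2AC8, the strongest H2A gene, had STAG2 percentiles of 50.8 and 5.19, and 63.1 and 60.1. H3C11, the strongest H3 gene, had STAG2 percentiles of 43.1 and 20.4, and 66.1 in both lists of replicate 2. HIST1H4B, the strongest H4 gene, had 52.7 and 42.4, and 75.2 and 69.0. These genes were picked for high STAG2 in WT, so a lower value in KD is in part fixed by the choice, and the lists differ in length. Over the start sites of all genes the median STAG2 change was −5.11 and −0.793 points. H3C1, the weakest H3 gene, had STAG2 peaks at percentiles 1.59 in WT and none in KD of replicate 1, and 6.88 and 9.02 in replicate 2.

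In the H2B family, H2BC4 had the highest STAG2 strength, with percentiles of 95.3 in WT and 87.4 in KD, and 96.7 and 92.6, and folds of 51.4 and 31.6, and 29.6 and 21.5. This peak, with its summit at 26097667 in WT of replicate 1, lay in the 37610 bp that the annotation gives to H2BC4, over HFE, and not at the 460 bp main transcript. At the main transcript of H2BC4 the STAG2 percentiles were 46.5 and 31.0, and 60.2 and 61.0. H2BC6 (12597 bp annotated) and H2BC11 (6899 bp) were alike in this, with strong STAG2 sites at summits 26175812 and 27095038. The main transcript of H2BC6 had STAG2 percentiles of 9.71 in WT and none in KD, and 39.5 and 0.699. These 3 sites were the strongest STAG2 peaks within 1 kb of any member in both lists of replicate 1, so that the top of the range in the cluster came from annotated spans rather than from histone transcripts.

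At H2BC17 the STAG1 percentile was 22.9 in WT and 48.7 in KD, and 51.7 and 93.3. The last value was not a new site. A site with its summit at 27863403 was present in all 16 lists, with STAG1 percentiles of 87.4 and 93.0, and 93.3 and 93.3, and a single broad peak in KD of replicate 2 came within 490 bp of the gene while those of the other STAG1 lists ended 1110 to 1373 bp away.

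Summits near the main transcripts were placed relative to the transcribed part. Main transcripts had a median length of 486 bp and made up 24.4% of the 107 kb within 1 kb of them, yet they held 37.5% to 63.8% of the summits. In the STAG2 lists 24 of 41 summits in WT and 22 of 36 in KD were within a transcript in replicate 1, and 29 of 55 and 30 of 54 in replicate 2. Upstream summits were the fewest, with 6 and 5, and 6 and 7. The median STAG2 summit lay 234 bp (WT) and 183 bp (KD) downstream of the start site in replicate 1 and 287 and 204 bp in replicate 2. Across all 16 lists this median ranged from 180 to 356 bp, and downstream summits outnumbered those within transcripts in the WT lists of STAG1 (31 and 28) and SMC1A (31 and 27) in replicate 2.

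**Figure D3:**
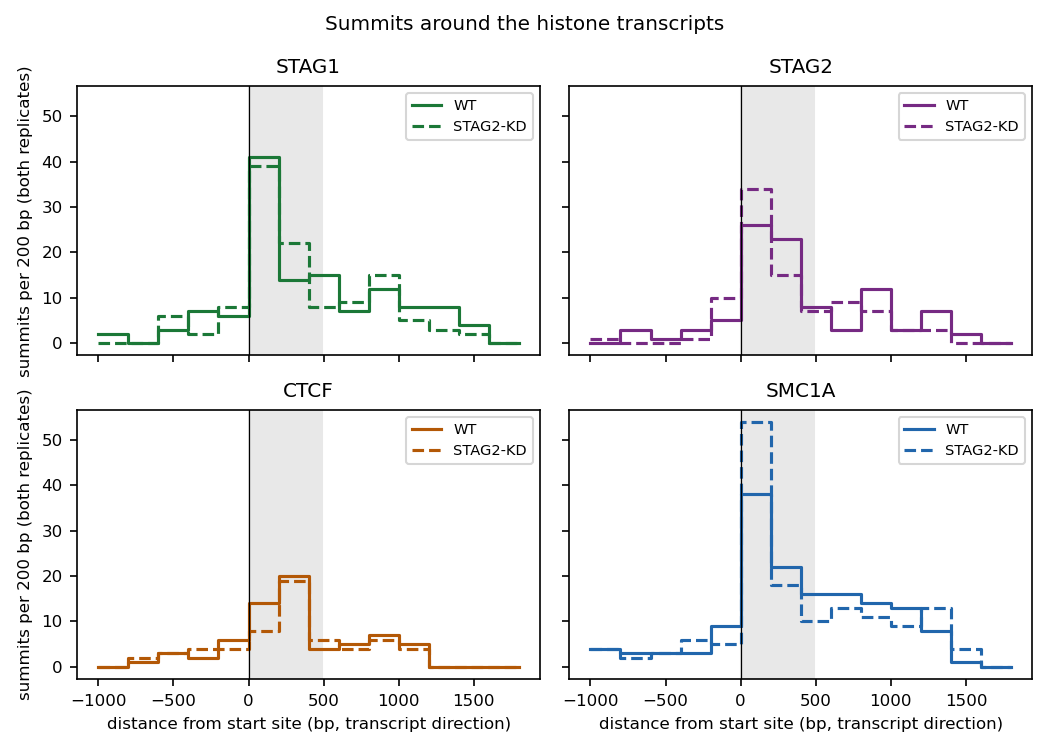
Number of peak summits per 200 bp (y axis, both replicates added) by distance from the start site of a histone gene (x axis, bp in the direction of transcription), in WT (solid) and KD (dashed), with a grey band for the median transcript length. Within transcripts lay 37.5% to 63.8% of the summits, and few were upstream.

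Upon STAG2 KD, the question was which sites were lost or gained. A WT peak that no KD peak of the same antibody and replicate overlapped was called lost, and a KD peak without a WT peak gained. Such calls rest on the threshold of each list, and no differential test stands behind them. Near the histone genes, 18 of 46 WT STAG2 peaks (39.1%) were lost in replicate 1, against 32.2% of the whole list. In replicate 2, 15 of 63 (23.8%) were lost, against 22.1%. At peaks of the same strength deciles the lists had lost 57.4% and 30.2%, so the loss of STAG2 at the genes was near that of the list and below that of comparably weak peaks. STAG2 peaks were also gained at the genes, 13 of 40 (32.5%) in replicate 1 against 6.62%, and 8 of 59 (13.6%) in replicate 2 against 12%, with 15.4% and 16.2% at the same strengths. The gain stood well above the list in replicate 1 but not in replicate 2.

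STAG1 losses at the genes stood above those of the list in both replicates. In replicate 1, 19 of 63 WT STAG1 peaks near members (30.2%) were lost, against 6.42% of the list, and in replicate 2, 23 of 83 (27.7%) against 13.6%. At the same strength deciles the lists had lost 14.4% and 20.6%. Gained STAG1 peaks were 19 of 64 (29.7%) against 31.7%, and 8 of 72 (11.1%) against 18.6%, with 53.1% and 23.5% at the same strengths. Gains at the genes were below those of the list in both replicates. For losses the difference narrowed at matched strength, and for gains it widened.

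For SMC1A, 18 of 85 WT peaks (21.2%) were lost in replicate 1 against 19.1%, and 13 of 89 (14.6%) in replicate 2 against 25.8%. SMC1A gains were 22 of 90 (24.4%) against 28.6%, and 23 of 89 (25.8%) against 29.7%. At matched strength the lists had lost 26.5% and 24.8% and gained 37.8% and 31.1%, and in each case the share at the histone genes was lower. CTCF losses were 7 of 31 (22.6%) against 12.3%, and 15 of 49 (30.6%) against 16.9%, with 15.6% and 25% at the same strengths. CTCF gains were 8 of 31 (25.8%) against 15.1%, and 6 of 40 (15%) against 12.1%, with 19.1% and 12.8% at the same strengths. Every lost or gained peak of STAG1, STAG2 and CTCF near a member was weaker than the median of its list, and 4 of SMC1A were stronger.

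**Figure D4:**
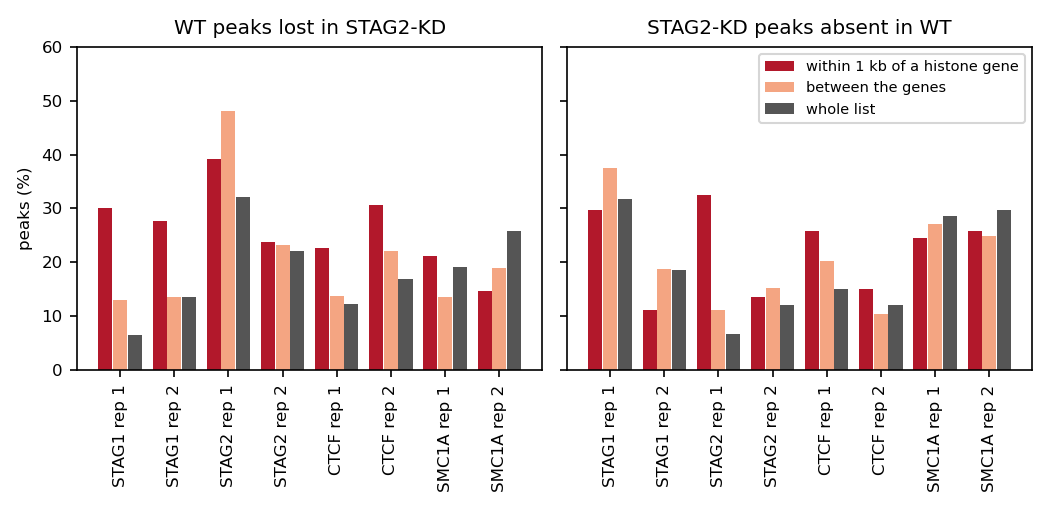
Percent of WT peaks lost (left) and of KD peaks gained (right) within 1 kb of the histone genes (red), between them (orange) and in the whole list (grey), by antibody and replicate. STAG1 losses near the genes were 30.2% and 27.7%, against 6.42% and 13.6% of the list.

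The expected background at these peaks also moved with the KD. Each list was called against the input of its condition and replicate, and the background that the authors' values imply can be read against the lowest in the list. At peaks near the histone genes it was 1.33 times the lowest in WT and 1.66 times in KD for STAG1 in replicate 1, and 1.59 and 1.77 times in replicate 2. For SMC1A it was 1.4 and 1.66, and 1.72 and 1.92. In the rest of chromosome 6 it was 1.11 to 1.32 times the lowest in all lists. The rise was seen with all 4 antibodies, which share an input within a condition and replicate, and its part in the lost and gained sites was not tested. Median reads at the summits near the genes were 12 to 26.5 per list, which is the depth behind these calls.

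**Figure D5:**
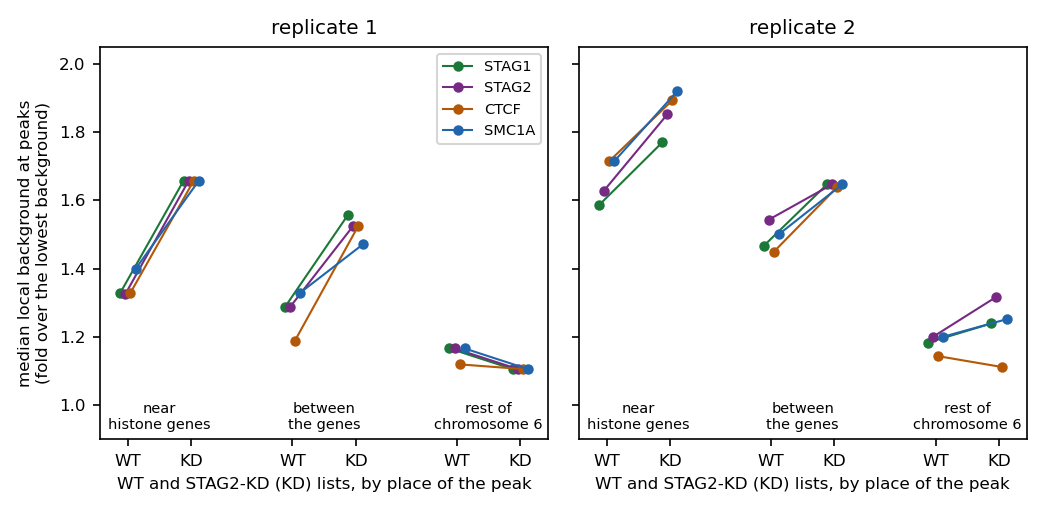
Median local expected background at peaks (y axis, multiple of the lowest of the list) near the histone genes, between them and in the rest of chromosome 6, in WT and KD (x axis), with a line for each antibody. It was 1.33 to 1.72 near the genes in WT and 1.66 to 1.92 in KD, above the 1.11 to 1.32 of the rest of the chromosome.

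The direction of change at genes with a peak in both conditions was compared by the percentile of the start-site peak. Members close together can share a peak, as H3C11 and H4C13 or H2BC12 and H2AC12 did, and each then enters the counts. Counts of members here and above are thus not counts of independent sites. For STAG1 in replicate 1 the median member rose by 11.1 percentile points and the median gene by 11.4, and in replicate 2 the changes were −0.813 and 1.34. Of 35 members measured in both replicates, 15 were higher in KD in both and 8 lower in both, or 42.9% and 22.9%, against 54.5% and 9.39% of all genes. For STAG2, 5 of 23 members were higher and 9 lower in both, or 21.7% and 39.1%, against 26.2% and 44.7% of all genes. STAG2 shares were thus near those of all genes, while STAG1 was higher at a smaller share of members than of all genes. For CTCF 6 of 22 were higher (27.3%) and 7 lower (31.8%), against 28.4% and 35.9%. For SMC1A 17 of 41 were higher (41.5%) and 13 lower (31.7%), against 34% and 33.1%. Over the whole annotated gene and 1 kb around it, the median STAG2 change was −6.37 points in replicate 1, with 11 members up and 15 down, and −2.94 in replicate 2, with 13 up and 28 down. The median change of STAG1 counted so was 9.04 in replicate 1 and −0.813 in replicate 2, and so differed in sign between the replicates.

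Few sites changed in both replicates. STAG1 was lost in both at 3 of 63 peaks near members (4.76%, against 1.30% of the list) and gained at 1 of 64 (1.56%, against 5.54%). The 3 lost sites were in H1-1, H1-3 and H2AC4, all in the second group of genes, and all were weak. At H1-1 the lost site (26017750 to 26018077) had STAG1 percentiles of 8.59 and 25.6 in WT, while CTCF, STAG2 and SMC1A peaks were present there in all lists. At H1-3 (26234665 to 26235264) they were 1.89 and 18.7, and SMC1A peaks were present in all 4 lists. At H2AC4 (26033515 to 26033933) they were 13.0 and 18.0, with folds of 4.41 and 2.46, and the SMC1A peak was lost as well in both replicates. The lost SMC1A peak had WT percentiles of 41.7 and 33.7, and no STAG2 or CTCF peak lay over the site in any list. H2AC4 was the single member with a site that lost both STAG1 and SMC1A in both replicates. Its sequence at the lost STAG1 summit is shown because the site had both losses, on the plus strand of hg19 at chr6:26033715-26033775, with the bases around the summit in capitals.
H2AC4: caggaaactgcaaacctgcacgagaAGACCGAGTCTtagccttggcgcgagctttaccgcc
In replicate 2 the strongest STAG1 peak within 1 kb of H2AC4 was a different one, at a percentile of 52.9 in WT, and a peak at 15.5 was present in KD. SMC1A also stayed within 1 kb of H2AC4 in KD, where its strongest peak was at 41.7 in WT and 41.6 in KD, and 60.1 and 23.6.

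The single STAG1 site near members that was gained in both replicates (27804628 to 27805478) lay downstream of H2AC15, within 1 kb of H2AC15 and H2BC15. Its KD percentiles were 1.21 and 34.9. No STAG2 site near a member was lost in both replicates. STAG2 was gained in both at 2 of 40 (5%, against 0.670%), near H3C12, H2AC17 and H2BC17 (27860257 to 27860461), at percentiles of 14.8 and 38.9, and near H2BC12 and H2AC12, at 6.17 and 2.25, a pair named after the values were seen. SMC1A was gained in both at 3 of 90 (3.33%, against 4.68%), near H2BC3 (25.3 and 14.1), H2BC11 (17.9 and 22.1) and the pair H2BC13 and H2AC13 (8.52 and 0.129). CTCF was lost in both at 1 of 31 (3.23%, against 2.84%), near H3C12, H2AC17 and H2BC17 (27860667 to 27860978, at 17.4 and 27.4), and gained at 2 of 31 (6.45%, against 1.75%), near H2BC13 and H2AC13 (20.9 and 27.0) and near H2BC17 (1.06 and 22.3). The end of the cluster at H3C12 to H2BC17 thus held a lost CTCF site, a gained CTCF site and a gained STAG2 site side by side, all weak. No site near a member that changed in both replicates reached the median of its list. A gained site did not mean a gain over the gene. At H3C12 the strongest STAG2 peak within 1 kb was at 46.7 in WT and 14.8 in KD, and 53.4 and 38.9. At H2AC17 and H2BC17 it was at 11.3 and 14.8, and 46.0 and 38.9. H2BC13 and H2AC13 already had CTCF peaks at 30.8 and 53.9 and SMC1A peaks at 37.3 and 56.0 in WT.

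Between the genes, 17 peaks changed in both replicates. Over the whole interval, members included, the shares lost in both were 3.03%, 3.25%, 1.80% and 1.02% in the order STAG1, STAG2, CTCF, SMC1A, against 1.30%, 4.51%, 2.84% and 2.6% of the lists. The shares gained were 3.12%, 2.35%, 3.48% and 3.14%, against 5.54%, 0.670%, 1.75% and 4.68%. Lost STAG2 sites were at 27520136 to 27521539 (WT percentiles 15.2 and 45.0, with a second peak at 8.74 in replicate 1), 26883031 to 26883305 (32.2 and 19.0) and 27551027 to 27551481 (11 and 31.8). SMC1A was present at the first and the last of these in every list, while STAG1 was gained at the last in replicate 1. A lost STAG1 site was at 27794351 to 27794583 (22.2 and 33.3), and a gained one was at 26336505 to 26336866 (11.9 and 25.5). A lost SMC1A site at 25992184 to 25992399 (12.5 and 66.0) was at the edge of the strongest CTCF site of the interval. Gained SMC1A sites were at 27761554 to 27761784 (8.52 and 43.1), 25910597 to 25910824 (5.65 and 38.7) and 27249058 to 27249252 (14.4 and 23.2), and none of these had a peak of another antibody. CTCF was lost at 26416628 to 26416995 (12.2 and 25.7) and gained at 26659557 to 26659751 (13.2 and 21.5). The other 5 peaks had lower mean percentiles, from 10.6 to 16.1.

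Strong CTCF sites of the interval were mostly apart from the histone transcripts. The strongest, at 25992151 to 25994044, had CTCF percentiles of 99.9 in WT and 98.9 in KD, and 99.7 and 99.8. The next were at 27094268 to 27095793, in the annotated span of H2BC11 (mean of the 4 lists 95), at 26064434 to 26066929 (94.4), at 26595248 to 26596875 (93.0) and at 26026166 to 26027383, at HIST1H4B (92.5). At HIST1H4B CTCF percentiles were 90.8 and 93.3, and 92.4 and 93.6, with folds of 77.7 and 80.4, and 40.2 and 42.5. At H1-1 they were 87.9 and 86.4, and 89.6 and 88.9. These CTCF sites were thus kept in KD at nearly the same strength, while a STAG1 peak at H1-1 was lost in both replicates.

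Sequences at these CTCF sites are shown because few had a match to a strict CTCF core. The CTCF core consensus, searched strictly on both strands within 100 bp of a summit, was found at 2.04% to 3.23% of the CTCF peaks near members, against 16% to 21.1% of the CTCF lists and 12.4% to 18.1% of their peaks at the same strength deciles. For cohesin lists the share near members was 0% to 1.69%. The one site near a member with a match was at H3C8, printed for chr6:26270911-26270951 on the plus strand, and among the 5 strongest CTCF sites only that at 26595248 had a match, on the minus strand, printed for chr6:26596158-26596198 in the direction of the match. The summits of HIST1H4B (chr6:26026676-26026736) and H1-1 (chr6:26018078-26018138) are on the plus strand. Capitals mark the core match in the first pair and the bases around the CTCF summit in the second.
H3C8: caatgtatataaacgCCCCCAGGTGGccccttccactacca
CTCF site at 26595248: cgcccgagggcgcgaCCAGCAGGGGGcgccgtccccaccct
HIST1H4B: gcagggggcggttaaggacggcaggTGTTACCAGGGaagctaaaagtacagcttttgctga
H1-1: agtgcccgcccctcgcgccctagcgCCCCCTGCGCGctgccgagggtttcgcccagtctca
At H3C8 the CTCF percentiles were 25.6 in WT and 28.6 in KD, and 54.1 and 48.8. This was below HIST1H4B and H1-1, which have no match, while the site at 26595248, which has one, was above both. The strict consensus misses many CTCF sites, and no match says only that these letters are absent from the window. On the minus strand the H1-1 summit reads GCAGGGGGCGC, which the site at 26595248 also holds. The printed HIST1H4B window opens on the plus strand with GCAGGGGGCGG, which differs from it in the last base alone. Neither H1-1 nor HIST1H4B is thus free of CTCF-like sequence.

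The B box, the internal promoter element of tRNA genes, was found at some of the sites between the genes. GTTCGANTC, its core, was searched on both strands and matched 39 places in the interval, of which 0 were within 1 kb of a member. In some list 29 of the 39 had a summit within 100 bp. SMC1A summits were at 16 of them in WT and 23 in KD of replicate 1, and at 12 and 16 in replicate 2. STAG2 summits were at 7 and 2, and at 11 and 7, and STAG1 summits at 3 and 7, and at 8 and 6. Over the whole lists, summits with a B box went from 128 to 152 and from 161 to 157 for SMC1A and from 87 to 76 and from 113 to 98 for STAG2, whose KD lists were also shorter. The SMC1A rise in replicate 2 was thus not seen over the whole list, while STAG2 counts fell in the interval and over the lists. As a share of the whole list, STAG2 summits with a B box went from 0.110% to 0.130% and from 0.0949% to 0.0923%. Between the genes the STAG2 share went from 9.09% to 4.44% and from 7.52% to 5.93%. Of the SMC1A peaks between the genes, 14.4% (WT) and 17.3% (KD) had a B box in replicate 1 and 6.71% and 9.55% in replicate 2, against 0.104% to 0.166% of the lists. The matches with the highest mean SMC1A percentile are printed on the strand of the match, with the B box in capitals, from chr6:27463634-27463682 (plus), chr6:26305710-26305758 (minus) and chr6:27652466-27652514 (minus).
27463654: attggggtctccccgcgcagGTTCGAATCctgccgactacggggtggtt
26305730: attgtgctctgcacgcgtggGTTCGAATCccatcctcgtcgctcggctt
27652486: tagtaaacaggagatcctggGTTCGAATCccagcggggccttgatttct
At the first, SMC1A percentiles were 64.3 and 66.2, and 67.7 and 78.6. At the second they were 38.4 and 56.0, and 66.0 and 70.1, with no peak of another antibody, and at the third 63.2 and 44.2, and 70.6 and 50.1. The change with the KD differed in sign among these 3. From 82.2% to 87.5% of the 50-mers around them were unique in the genome.

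Merged over all lists, the peaks within 1 kb of members formed 79 regions and those between them 204. Of the 79, 14 were present in all 16 lists, 18 in a single list, 37 in no CTCF list and 18 in SMC1A lists only. Of the 204, 35 were in all lists, 55 in a single list, 96 in no CTCF list and 48 in SMC1A lists only. The share without CTCF was 46.8% near the genes and 47.1% between them, and the share present throughout was 17.7% and 17.2%. Near and between regions were therefore alike in how often CTCF was called, while the B box matched only between the genes, which make up most of the interval. Copies of histone genes resemble each other, and 8 members had under 90% unique 50-mers over the gene and 1 kb flanks (80.3% to 89.0%). Of these, H4C11 and H4C12 had 7.94% and 7.40% unique 50-mers in the transcript itself, so most reads of that length within it could not be placed, and peaks at these 8 are uncertain.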

How the data were processed

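ChIP-seq libraries of 4 antibodies were analysed from 16 narrowPeak lists, and 4 input libraries had no list. Per the submitters' processing notes, the lists were made with Bowtie2 and MACS2 (replicate 1) and with CASAVA 1.4, BWA, SAMtools, Picard, MACS2 and deepTools (replicate 2). The deposited lists give a whole-number score, and, at the summit, a fold enrichment (a ratio), a p-value and a q-value as −log10. All peaks had a −log10 q of at least 2 in replicate 1 and a −log10 p of at least 2 in replicate 2, where −log10 q falls to 0.311, so lists were compared within a replicate. Peaks on assembled chromosomes were kept. Python 3.11.15, NumPy 2.4.6, pandas 2.3.3, SciPy 1.17.1 and matplotlib 3.10.9 were used, and the functions were tested on simulated data. Positions are hg19, 1-based, with sequence from GRCh37 and genes from GENCODE of that build.

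Depth, recovered from fold and p-value, ranged from 20.2 to 46.7 M reads (replicate 1) and from 37.4 to 71.7 M (replicate 2), assuming a genome of 2.7 Gb and extension by the narrowest peak (120 and 150 bp). Same-numbered libraries share a batch, since the labels give a different size selection for each number.

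Named genes were those with a site changed in both replicates (at most 12 by strength), the strongest and weakest of each family by WT STAG2 mean, those with peaks in none or all of the lists (at most 8 names), and, between genes, at most 12 changed sites and the 5 strongest CTCF sites. The members, lists and tests were chosen with earlier results of these data known. Alternatives were a gene body or 5 kb window, 50% overlap, a −log10 q of 5 or 2 in every list, equal list lengths, members with 90% unique 50-mers, log2 fold in place of percentile, a replicate block, leaving out a replicate, and, added after seeing the data, the main transcript.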

Additional observations from a re-analysis of the deposited data

How the results depend on the processing

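Apart from leaving out a replicate, the KD minus WT number of bound genes reversed under 3 of 32 and the median percentile change moved under 3 of 16, while the shares of lost and gained sites moved under 9 and 7 of 16 each. The cause was not tested. Gene counts turned to 3 for STAG2 with a 5 kb window, and to 6.5 for STAG2 and −2 for SMC1A with equal list lengths. With the replicate block, in which the pairing by number reflects the shared size selection, the differences were −1.5, −2, −2 and 2.5 genes for STAG1, STAG2, CTCF and SMC1A (exact sign-flip p of 0.5, 0.5, 0.5 and 1, the smallest possible being 0.5), and no call changed. Leaving out a replicate gave −2 to −1 genes for STAG1, −3 to −1 for STAG2 and CTCF, and 0 to 5 for SMC1A, which fell to 0 without replicate 1.

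Lost sites over the interval, on average of both replicates, were 20.4%, 34.1%, 20.5% and 17.1% in the order STAG1, STAG2, CTCF, SMC1A. A 50% overlap gave 27.6% for STAG1 and 25.3% for SMC1A. The stricter threshold gave 15.6% for STAG1, 11.9% for CTCF and 15.8% for SMC1A, and the common threshold 14.7% for SMC1A. Equal list lengths gave 29.6%, 20.6%, 7.92% and 24.9% in that order, so that STAG2 loss was then below that of STAG1 and SMC1A. This setting cuts every list to 58521 peaks, the length of the STAG2 KD list of replicate 1, and so shortens longer lists more. No loss or gain over the whole lists was taken at these lengths, so whether the cluster differs from them was not tested. Leaving out a replicate gave 19.6% to 21.2%, 23.5% to 44.7%, 16.2% to 24.7% and 16.8% to 17.4% for STAG1, STAG2, CTCF and SMC1A. STAG2 loss thus rested on replicate 1, being 23.5% without it.

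Gained sites were 25.1%, 17.9%, 16.7% and 25.6% in the same order. A 50% overlap gave 23.4% for STAG2 and 31.6% for SMC1A, the common threshold 24.4% for SMC1A, and equal list lengths 7.21%, 25.7%, 5.18% and 15.9%. Leaving out a replicate gave 15.9% to 34.4%, 14.7% to 21.2%, 11.7% to 21.7% and 25.2% to 26%. The median percentile change was 4.12, −4.65, −0.040 and 0.619 points. That of SMC1A moved to 2.18 with the gene body, −0.065 with unique 50-mers and −0.657 with the main transcript. Leaving out a replicate gave −0.813 to 9.04, −6.37 to −2.94, −1.30 to 1.22 and 0.164 to 1.08 points, so that STAG1 turned to −0.813 without replicate 1 and CTCF to 1.22 without replicate 2.

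The 2 lists per group, and medians of 12 to 26.5 reads at summits near the genes, limit what these counts can show.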
